A study of Mus musculus with 23 samples.

Results

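The genes described here are 10 genes of the contractile cytoskeleton and of the mechanically regulated transcription factors SRF and YAP, measured in TM4 Sertoli cells after exposure to plasticizers. They were chosen by name, and a probe was assigned to a gene when the RefSeq transcript listed for it belonged to that gene. This gave 15 probes of 10 genes, out of 55681 non-control probes on the array and 20145 genes that could be named. Tpm1 had 5 probes, Tpm2 had 2 and each other gene had 1. All 15 probes were well above background on all 23 arrays, so no value of a member is a lower or upper limit. The value given for a gene is that of its brightest probe unless another probe is named.

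TM4 is an immortalized line of Sertoli cells, the somatic cells that support germ cells in the seminiferous tubule, and it was derived from mouse testis. Every culture received 1% DMSO for 48 hr. The DMSO group (4 arrays) received the vehicle alone. The other groups received 100 μM of MEHP (mono(2-ethylhexyl) phthalate, formed in the body from a phthalate plasticizer, 4 arrays), diisononyl cyclohexane-1,2-dicarboxylate (DINCH, a commercial replacement, 4 arrays), dioctyl maleate (DOM, 4 arrays), 1,4-butanediol dibenzoate (BDB, 4 arrays) or dioctyl succinate (DOS, 3 arrays, after the study had left out 1 replicate for high background). There was 1 dose and 1 time per compound, and the cells are a single cell line in culture. The 23 arrays carried 1 colour and lay on 3 slides. The 75th percentile of intensity ranged from 204.6 to 350.7 between arrays, and 43.4% to 52.2% of non-control spots were well above background.

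The identity of the cells was checked against cell type markers. Of 15 Sertoli cell markers, 8 were well above background on every DMSO array, among them Gata4, Dmrt1 and Sox9, while Wt1, Fshr and Cldn11 were above background on no array. Of 6 fibroblast markers, 5 were above background on all DMSO arrays, Col1a1 and Col1a2 among them. Of 6 markers of smooth muscle or peritubular myoid cells, Actg2 and Smtn were above background on every array, and the defining genes Myh11 and Myocd on none. Of 5 germ cell markers 1 (Prm1), and of 5 Leydig cell markers 1 (Cyp17a1), was above background on all DMSO arrays.

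SRF is a transcription factor that binds CArG boxes in the promoters of cytoskeletal genes. Its coactivators, the MRTF proteins, are held by monomeric actin and enter the nucleus when actin polymerises, so that smooth muscle actin and its partners follow the state of the cytoskeleton. YAP and TAZ are coactivators of the TEAD factors and are restrained by the Hippo kinases. They enter the nucleus in spread or tense cells and drive genes such as Ccn1, Ccn2 and Ankrd1. In the testis contractile genes are best known from peritubular myoid cells, while vimentin forms the intermediate filament network of the Sertoli cell.

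A promoter sequence from RefSeq (GRCm38.p6) was matched for 8 of the 10 genes. Tagln and Ccn2 were not matched. The 250 bases before the start of the gene are printed for 4 genes, on the strand of the gene. They were chosen because Myl9, Cnn1 and Ankrd1 had the largest called differences between DOM and DMSO among the matched genes, and Acta2 was the gene that separated MEHP from DINCH. Capitals mark CArG boxes, allowing 1 C or G among the 6 inner bases that are otherwise A or T, and the TEAD core GGAATG on either strand. No matches overlapped. The positions are chr2:156775214-156775463 (+ strand) for Myl9, chr9:22099003-22099252 (+ strand) for Cnn1, chr19:36119845-36120094 (- strand) for Ankrd1 and chr19:34255374-34255623 (- strand) for Acta2.
Myl9: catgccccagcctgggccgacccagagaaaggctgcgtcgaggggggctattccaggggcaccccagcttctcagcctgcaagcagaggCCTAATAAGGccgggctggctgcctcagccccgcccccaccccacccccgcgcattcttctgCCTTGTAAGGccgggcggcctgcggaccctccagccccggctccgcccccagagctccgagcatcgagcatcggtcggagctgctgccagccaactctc
Cnn1: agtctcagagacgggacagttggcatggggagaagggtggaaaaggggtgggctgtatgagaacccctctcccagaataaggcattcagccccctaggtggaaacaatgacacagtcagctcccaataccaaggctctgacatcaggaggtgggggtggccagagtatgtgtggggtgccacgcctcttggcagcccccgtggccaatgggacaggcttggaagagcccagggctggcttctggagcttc
Ankrd1: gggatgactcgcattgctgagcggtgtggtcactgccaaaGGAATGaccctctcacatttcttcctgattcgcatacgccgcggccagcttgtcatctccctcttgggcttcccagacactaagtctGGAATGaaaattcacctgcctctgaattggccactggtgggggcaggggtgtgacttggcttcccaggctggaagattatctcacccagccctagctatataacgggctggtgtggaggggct
Acta2: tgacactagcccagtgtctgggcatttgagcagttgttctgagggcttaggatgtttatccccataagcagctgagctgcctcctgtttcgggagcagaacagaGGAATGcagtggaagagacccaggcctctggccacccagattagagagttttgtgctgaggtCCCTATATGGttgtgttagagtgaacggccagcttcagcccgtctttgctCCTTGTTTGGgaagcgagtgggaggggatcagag

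In this window Myl9 held 1 exact CArG box, from 161 to 152 bases before the start, and another with 1 inner C or G. Acta2 held 2 CArG boxes with 1 inner C or G, from 84 to 75 and from 34 to 25 bases before the start, and 1 TEAD core. Ankrd1 held 2 TEAD cores, at 210 to 205 and 123 to 118 bases before the start. Cnn1 held neither motif. Of 32851 mouse promoter windows of the same length, 1.47% held an exact CArG box, 8.59% one with at most 1 inner C or G, and 12.6% the TEAD core. Ccn1 and Tpm1, which are not printed, held 1 TEAD core each, and Tpm2 and Vim held neither motif.

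Each compound was compared with DMSO to ask whether it changed the transcripts of the cells. Calls required an adjusted p below 0.05 (limma, Benjamini-Hochberg over all tested probes) together with a difference above 1.5-fold on at least 1 probe of the gene. Levels are log2 intensities relative to the 75th percentile of the array, and differences are log2 differences of these levels. All comparisons used the same 4 DMSO arrays. A level is that of the whole culture, so a change in the share of cells of 1 kind cannot be told apart from a change per cell.

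DOM changed 4 of the 10 genes, where 20.5% of all genes tested were called. Myl9, the regulatory light chain of nonmuscle and smooth muscle myosin II, rose 2.95-fold. Cnn1 (calponin, an actin-binding protein of smooth muscle) fell to 43.2% of its DMSO level, Ankrd1 (a nuclear ankyrin repeat protein and YAP target) to 30.8% and Ccn2 (connective tissue growth factor, a secreted YAP target) to 39.5%. Over the 10 genes 5 differences were above 0 and 5 below, with a median of 0.03, against a median of -0.03 over all genes. The groups did not overlap for 4 of the 10 genes (Cnn1, Myl9, Tpm2 and Ankrd1), compared with 39.4% of all genes.

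**Figure D1:**
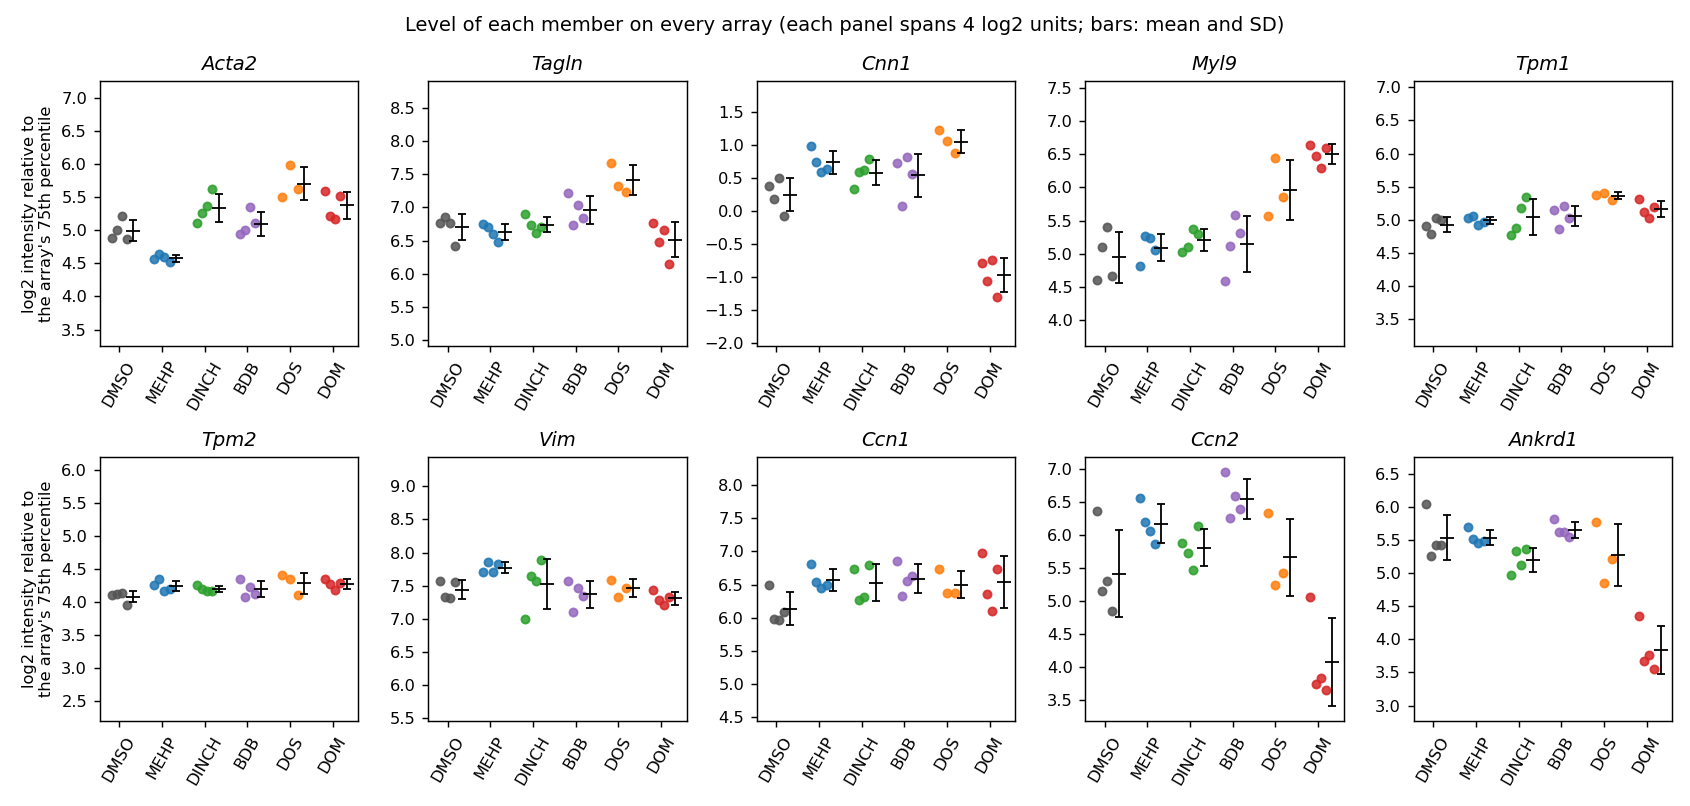
Level of each of the 10 genes (brightest probe) on every array, as log2 intensity relative to the 75th percentile of the array, in 6 groups; points are arrays, and the bar beside them is the mean with its SD. Each panel spans 4 log2 units. The 4 DOM arrays lie below all others for Cnn1 and Ankrd1 and above the 4 DMSO arrays for Myl9, and the 3 DOS arrays lie above the DMSO arrays for Acta2, Tagln, Cnn1, Myl9 and Tpm1.

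The contractile genes did not move together under DOM. Levels of Myl9 were 6.64, 6.48, 6.30 and 6.60 on the DOM arrays and 4.60, 5.10, 5.41 and 4.66 on the DMSO arrays. Every DOM array lay above every DMSO array, and the difference was 1.56 ± 0.18 (SE, n = 4 and 4; limma, adjusted p = 0.00055). Levels of Cnn1 were -0.79, -1.06, -0.75 and -1.30 with DOM and 0.37, 0.18, 0.49 and -0.08 with DMSO. Every DOM array lay below every DMSO array, and the difference was -1.21 ± 0.16 (SE; limma, adjusted p = 0.000967). The level of Myl9 minus that of Cnn1 on the same array was 7.48 ± 0.35 (SD, n = 4) with DOM and 4.70 ± 0.33 (SD, n = 4) with DMSO. In the other 4 treated groups this quantity had means of 4.36 to 4.91. It is given as a description, because the pair was chosen after its values were seen.

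Acta2 (smooth muscle alpha actin) was at 5.59, 5.22, 5.17 and 5.52 with DOM and at 4.89, 5.0, 5.22 and 4.87 with DMSO. These groups overlapped, and the difference of 0.38 ± 0.13 (SE; limma, adjusted p = 0.0579) did not pass. Tagln (transgelin, another actin-binding protein of smooth muscle) differed by -0.19 ± 0.16, with groups that overlapped. The tropomyosins, which lie along actin filaments, differed by 0.23 for Tpm1 and 0.19 for Tpm2 and did not pass. Vim, the filament gene of Sertoli cells, differed by -0.13 ± 0.10 with a 95% confidence interval from -0.37 to 0.10. The Acta2 probe had 10 spots on each array, whose SD within an array was 0.03 to 0.10. Acta1, skeletal muscle actin, is a near-identical paralogue of Acta2, and cross-hybridization between their probes was not tested.

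Among the YAP targets, Ankrd1 was at 4.36, 3.67, 3.76 and 3.56 with DOM and at 6.04, 5.26, 5.42 and 5.43 with DMSO. The groups did not overlap, and the difference was -1.70 ± 0.21 (SE; limma, adjusted p = 0.000716). Ccn2 was at 5.07, 3.75, 3.84 and 3.66 with DOM and at 6.36, 5.16, 5.30 and 4.85 with DMSO. The first DOM array lay within the DMSO range and the other 3 below it. The difference was -1.34 ± 0.38 (SE; limma, adjusted p = 0.027), and it no longer passed when DMSO replicate 1 (-1.02), DMSO replicate 3 (-1.38), DOM replicate 2 (-1.23), DOM replicate 3 (-1.26) or DOM replicate 4 (-1.20) was left out. Over 19 alternatives the difference ranged from -1.67 to -1.02 and the adjusted p from 0.000679 to 0.11.

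Ccn1 (CYR61, a secreted matrix protein of the same family as Ccn2) was at 6.98, 6.35, 6.10 and 6.73 with DOM and at 6.50, 5.98, 5.97 and 6.08 with DMSO. The groups overlapped, and the difference of 0.41 ± 0.20 (SE; limma, adjusted p = 0.157) did not pass. With quantile normalization it did (0.61, adjusted p = 0.0334). Against the same DMSO arrays Ccn1 differed by 0.44 with MEHP, 0.39 with DINCH, 0.46 with BDB and 0.36 with DOS. None of these passed, and a difference of this size was thus not particular to DOM. The level of Ccn2 minus that of Ccn1 on the same array was -2.46 ± 0.49 (SD, n = 4) with DOM and -0.72 ± 0.45 (SD, n = 4) with DMSO, a description of a pair chosen after its values were seen.

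Within each slide DOM and DMSO arrays could be compared directly, with 1 or 2 arrays of each. Myl9 differed by 1.96, 1.05 and 1.93 on slides 1, 2 and 3. Cnn1 differed by -1.29, -1.08 and -1.22, Ankrd1 by -2.02, -1.58 and -1.87, and Ccn2 by -1.95, -1.39 and -1.19. Each gene thus differed in 1 direction on all 3 slides. With the slide as a block the differences were 1.62 for Myl9, -1.20 for Cnn1, -1.82 for Ankrd1 and -1.54 for Ccn2, and all 4 genes stayed called. Cell type markers were also averaged, as the log2 of the mean linear level over each list, so the brightest genes weigh most. The mean over the 6 smooth muscle markers ranged from 0.19 to 0.52 with DOM, 0.79 to 1.09 with DMSO and 0.88 to 1.19 with MEHP. It ranged from 1.15 to 1.49 with DINCH, 1.00 to 1.27 with BDB and 1.02 to 1.29 with DOS. Smtn was the brightest of them, at 3.03 with DMSO and 2.25 with DOM, and Actg2 was at 1.58 and 1.41. Myh11 and Myocd were not above background on any array. The mean over the 15 Sertoli cell markers ranged from 1.47 to 2.18 with DOM, -0.28 to 0.81 with DMSO and -0.56 to 0.36 with MEHP. It ranged from -0.78 to 0.08 with DINCH, -0.25 to 0.96 with BDB and 0.10 to 1.27 with DOS. The DOM arrays lay below all others in the first mean and above all others in the second. Each mean mostly follows its brightest gene, Smtn or Inhbb, and does not describe its whole list. The mean over the fibroblast markers ranged from 6.62 to 7.13 with DOM and from 6.38 to 6.86 with DMSO. For the Leydig cell markers these ranges were 0.73 to 1.27 and 1.03 to 2.10. For the germ cell markers they were -4.21 to -3.36 and -4.63 to -3.20. In each of these lists DOM and DMSO overlapped. The fibroblast mean mostly follows Col1a2, at 8.76 with DMSO and 8.95 with DOM, and does not describe its whole list. Col3a1 was at 5.08 with DMSO and 6.18 with DOM, and Pdgfra at 0.4 and 1.26. Dcn went the other way, from 3.9 to 3.28. Smtn and Actg2 are also in the list of SRF targets and the part of these markers in the result was not tested.

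DINCH changed 1 of the 10 genes, where 8.26% of all genes tested were called. That gene was Tpm1, and only 2 of its 5 probes passed. The probe A_55_P2187038 was at 3.87, 3.62, 3.64 and 3.85 with DINCH and at 3.39, 3.03, 2.98 and 2.90 with DMSO. Every DINCH array lay above every DMSO array, and the difference was 0.67 ± 0.13 (SE; limma, adjusted p = 0.0153). The probe A_55_P2187043, listed for the same transcript, differed by 0.59 (limma, adjusted p = 0.0214). The count was 0 with no filter on dim probes, with the brightest probe only and without DMSO replicate 3. The brightest probe of Tpm1, listed for another transcript, differed by 0.12 ± 0.14, and the remaining 2 by -0.30 and 0.04. On the brightest probes the median over the 10 genes was 0.19, against 0 over all genes, and the groups did not overlap for 1 of the 10 genes (Tpm2), compared with 24% of all genes.

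**Figure D2:**
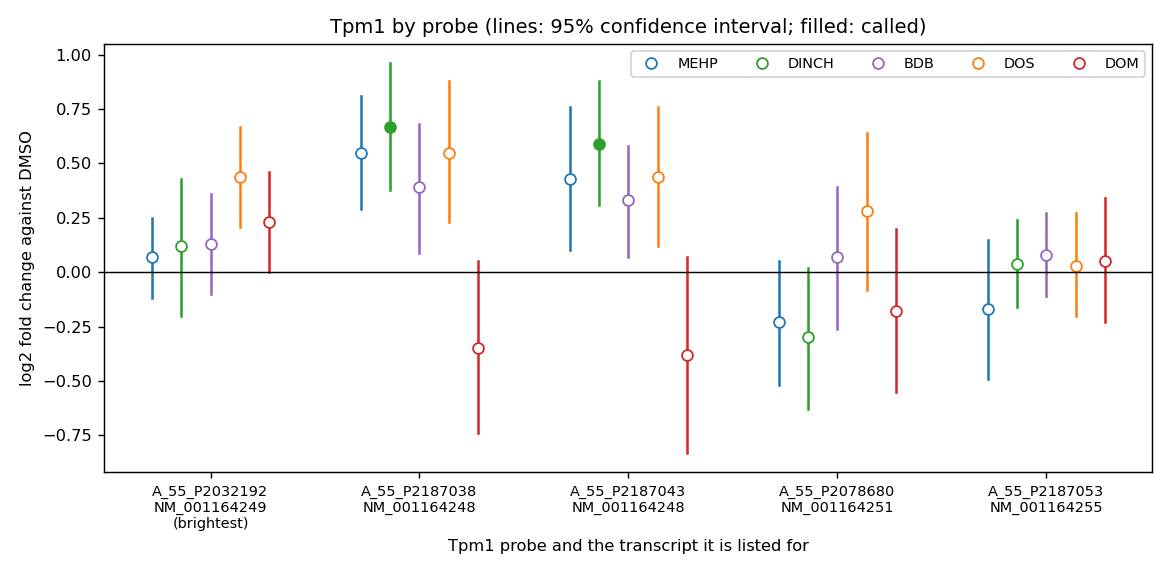
Difference from DMSO on each of the 5 Tpm1 probes for 5 compounds, as log2 fold change with its 95% confidence interval; filled points were called. The 2 filled points are DINCH on the 2 probes of the second transcript (0.67 and 0.59), where DOM was at -0.35 and -0.38 and not called.

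The 2 probes of that transcript showed differences of 0.55 and 0.43 with MEHP, 0.55 and 0.44 with DOS, and 0.39 and 0.33 with BDB, none of which passed. With DOM they were at -0.35 and -0.38 and did not pass. Tropomyosin transcripts differ by alternative splicing, and these probes are listed for transcripts of 1 gene, so they are not replicates of each other.

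MEHP changed 0 of the 10 genes by the limma test, where 1.68% of all genes tested were called. An unadjusted p below 0.05 was reached by 5 of the 10 genes, compared with 18.9% of all genes. Groups did not overlap for 4 (Acta2, Cnn1, Tpm2 and Vim), compared with 14.4% of all genes. Acta2 was at 4.56, 4.64, 4.60 and 4.52 with MEHP, below all DMSO arrays, with a difference of -0.42 ± 0.09 (SE; limma, adjusted p = 0.0609). Vim was at 7.71, 7.86, 7.70 and 7.82 with MEHP and at 7.57, 7.33, 7.31 and 7.55 with DMSO, a difference of 0.33 ± 0.09 (SE; limma, adjusted p = 0.114). Neither passed. Cnn1 differed by 0.49, Ccn1 by 0.44 and Ccn2 by 0.75, also without passing. Without DMSO replicate 1, whose Ccn2 level was the highest of its group, Ccn2 (1.07) and Tpm1 (0.65 on the probe A_55_P2187038) were called.

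BDB changed 0 of the 10 genes by the limma test, and 0% of all genes were called. An unadjusted p below 0.05 was reached by 2 of the 10 (Ccn1 and Ccn2), compared with 16.3% of all genes, and no member had groups that did not overlap, compared with 12% of all genes. Ccn2 was at 6.95, 6.25, 6.59 and 6.40 with BDB. Of these arrays 3 lay above all DMSO arrays, and the difference was 1.13 ± 0.30 (SE; limma, adjusted p = 0.137). With the slide as a block the same difference of 1.13 passed (adjusted p = 0.0463). Ccn1 differed by 0.46 ± 0.15 (SE; limma, adjusted p = 0.21).

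DOS changed 0 of the 10 genes by the limma test, and again 0% of all genes were called. An unadjusted p below 0.05 was reached by 5 of the 10 genes, compared with 6.34% of all genes. These were Acta2, Tagln, Cnn1, Myl9 and Tpm1, in each of which all 3 DOS arrays lay above all 4 DMSO arrays. No DOS array lay on slide 2, where DMSO replicates 2 and 3 lay. On slides 1 and 3, each with 1 DMSO array, Myl9 differed by 0.97 and 1.49 and Cnn1 by 0.85 and 1.04. Tagln differed by 0.89 and 0.86, Acta2 by 0.6 and 0.94 and Tpm1 by 0.48 and 0.37. Groups without overlap were seen in 8.14% of all genes, and in 4.33% with DOS higher. Cnn1 was at 1.22, 1.05 and 0.87 with DOS, with a difference of 0.81 ± 0.16 (SE, n = 3 and 4; limma, adjusted p = 0.359). Myl9 was at 5.57, 6.45 and 5.86, with a difference of 1.02 ± 0.26 (adjusted p = 0.435). Tagln was at 7.67, 7.32 and 7.24 and Acta2 at 5.50, 5.99 and 5.63, each with a difference of 0.71 (adjusted p = 0.368). None of these differences passed the test over all probes. The YAP targets differed by 0.36 for Ccn1, 0.25 for Ccn2 and -0.26 for Ankrd1.

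**Figure D3:**
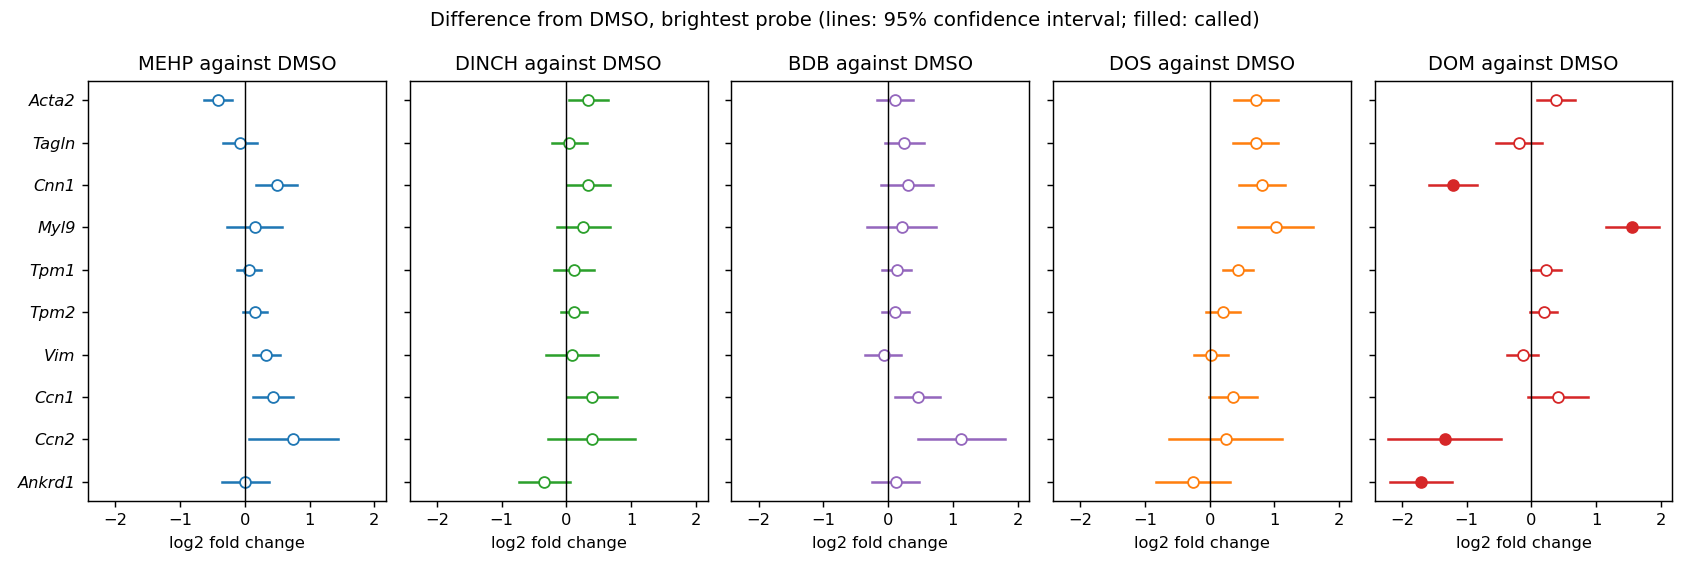
Difference from DMSO of the 10 genes for each compound, as log2 fold change of the brightest probe with its 95% confidence interval; filled points were called. The 4 filled points are in the DOM panel: Myl9 at 1.56, Cnn1 at -1.21, Ccn2 at -1.34 and Ankrd1 at -1.70.

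The compounds were then compared with each other at the same dose and time, in 5 pairs, with p-values adjusted over all tested probes of the 5 pairs together. DOM and DOS are both dioctyl diesters, and differ in that the maleate core has a double bond where the succinate core is saturated. Between them 5 of the 10 genes were called, all lower with DOM, where 15.8% of all genes were called and 8.35% were lower with DOM. The difference in Cnn1 was -2.02 ± 0.16 (SE, n = 4 and 3; limma, adjusted p = 0.000156), which is 24.6% of the DOS level. Ccn2 differed by -1.59, Ankrd1 by -1.44 and Tagln by -0.89 (adjusted p = 0.0165, 0.00423 and 0.00674), and in all 4 genes the DOM and DOS arrays did not overlap. Tpm1 was called on the 2 probes of the second transcript (-0.90 and -0.82) and not on its brightest probe (-0.21).

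The other 5 genes were not called between DOM and DOS. Myl9 differed by 0.54 with a 95% confidence interval from 0.08 to 1.01 (limma, adjusted p = 0.08), and it passed with quantile normalization (0.73), normexp (0.61) or the slide as a block (0.72), and without DOS replicate 3 (0.79). Acta2 differed by -0.33, with an interval from -0.71 to 0.04. Ccn1 differed by 0.05, with an interval from -0.44 to 0.53, and Tpm2 by -0.01, with an interval from -0.27 to 0.25. Without DOS replicate 1 the difference of Ccn2 was -1.26 and was no longer called.

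Against MEHP, DOM differed in 6 genes, where 19.2% of all genes were called. Myl9 (1.41) and Acta2 (0.80) were higher with DOM, and Cnn1 (-1.70), Ccn2 (-2.09), Ankrd1 (-1.70) and Tpm1 (-0.89 and -0.81 on the 2 probes of the second transcript) were lower. Against DINCH 5 genes differed, where 23% of all genes were called. Myl9 was higher by 1.30, and Cnn1 (-1.55), Ccn2 (-1.73), Ankrd1 (-1.36) and Tpm1 (-1.02 and -0.97) were lower. Against BDB 5 genes differed, where 26.8% of all genes were called. Myl9 was higher by 1.35, and Cnn1 (-1.51), Ccn2 (-2.47), Ankrd1 (-1.82) and Tpm1 (-0.73 and -0.71) were lower. Ccn1 was not called in any of these 3 pairs, with differences of -0.03, 0.01 and -0.05 and intervals from -0.45 to 0.39, -0.45 to 0.48 and -0.48 to 0.39. These pairs share the DOM arrays. In each of them DOM also lay in other slide rows than the other compound, so row and compound cannot be told apart.

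**Figure D4:**
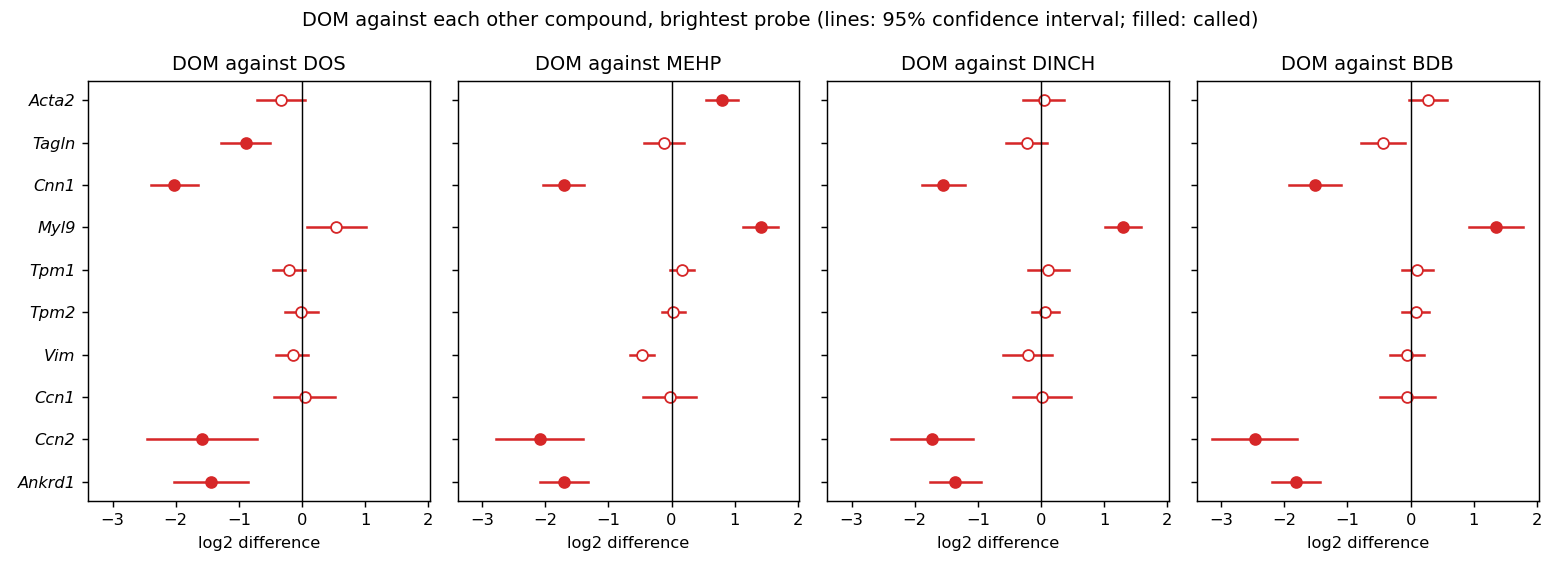
Difference between DOM and each other compound for the 10 genes, as log2 difference of the brightest probe with its 95% confidence interval; filled points were called. Cnn1, Ccn2 and Ankrd1 lie below 0 in all 4 panels, and Ccn1 lies between -0.05 and 0.05.

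MEHP and DINCH differed in 1 of the 10 genes, where 3.73% of all genes were called. Acta2 was at 4.56 to 4.64 with MEHP and at 5.11 to 5.62 with DINCH. The groups did not overlap, and the difference was -0.76 ± 0.11 (SE, n = 4 and 4; limma, adjusted p = 0.00146), which is 59.1% of the DINCH level. Ankrd1 differed by 0.34 (adjusted p = 0.0502) and did not pass, although every MEHP array lay above every DINCH array.

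The order of the 6 group means differed between genes. For Acta2 the order from low to high was MEHP (4.58 ± 0.05), DMSO (5.0 ± 0.16), BDB (5.10 ± 0.18), DINCH (5.34 ± 0.21), DOM (5.37 ± 0.22) and DOS (5.71 ± 0.25, SD). Only MEHP and DMSO, among neighbours in this order, had ranges that did not overlap. For Tagln the order ran from DOM (6.52 ± 0.27) to DOS (7.41 ± 0.23), and only BDB and DOS among neighbours did not overlap. For Cnn1 it ran from DOM (-0.97 ± 0.26) to DOS (1.05 ± 0.18), and only DOM and DMSO among neighbours did not overlap. For Myl9 it ran from DMSO (4.94 ± 0.38) to DOM (6.50 ± 0.15), and only DINCH and DOS among neighbours did not overlap. For Ankrd1 it ran from DOM (3.84 ± 0.36) to BDB (5.65 ± 0.12), and only DOM and DINCH among neighbours did not overlap. For Ccn2 it ran from DOM (4.08 ± 0.66) to BDB (6.55 ± 0.30), and for Tpm1, Tpm2, Vim and Ccn1 too all neighbouring ranges overlapped.

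Over the 23 arrays the 45 pairs of members had correlations from -0.83 to 0.91 with a median of 0.23, and 8 pairs were above 0.5. The points share the groups, and no test was made. Among 11157 genes above background on all arrays, the genes with the pattern most like that of Acta2 were Acta1 (r = 0.94), Foxc1 (0.83) and Ldb2 (0.80). The genes most like Ccn2 were Haus6, Ncapd3 and Tm4sf1 (r = 0.94 each), and Ankrd1 had 0.91. Ccn2 and Ccn1 had 0.39 over the 23 arrays and 0.78 within groups, after the group means were removed.

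Other genes of the same pathways were counted from textbook lists, and each count is to be read against the share of all genes called, which was 20.5% for DOM, 8.26% for DINCH and 1.68% for MEHP. Of 19 tested cytoskeletal targets of SRF and MRTF, DOM raised 3 (Palld by 0.78, Vcl by 0.68 and Fhl2 by 0.61, which encode proteins of actin bundles and adhesions) and lowered 1 (Smtn, smoothelin, which fell by 0.78), with a median of -0.03. Of 17 other YAP and TEAD targets, DOM raised 3 (F3, tissue factor, by 0.88, Asap1 by 0.77 and Arhgef17 by 0.71) and lowered 0, with a median of 0.07. DINCH raised 2 of these 17 (Lats2 by 1.21 on a probe that is not its brightest, and Tgfb2 by 0.74), and MEHP raised 1 (Tgfb2 by 0.89). MEHP and DINCH changed no gene of the SRF list. With BDB and DOS 0 genes of any of these lists were called, as 0% were over all genes. Of 20 tested SRF and MRTF targets, 19 were above 0 with DOS, with a median of 0.12. Over all genes 47.8% were above 0 with DOS, with a median of -0.01. With BDB and with MEHP 10 of the 20 were above 0, with DINCH 9 of 20 and with DOM 8 of 19. The direction of this list was not tested.

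Again beside 20.5% of all genes called for DOM, of 18 genes for the Hippo kinases, YAP, TAZ and the TEAD factors and their cofactors, DOM raised Amot (angiomotin, a YAP-binding junction protein) by 1.08, Vgll4 (a competitor of YAP for TEAD) by 0.88 and Tead3 by 0.65. Yap1 itself differed by 0.46 ± 0.10 (SE; limma, adjusted p = 0.00726), under 1.5-fold. Srf differed by 0.15 on its brightest probe and by -0.54 on another, and neither passed. Of 5 other intermediate filament genes that were tested, DOM lowered Lmnb1 (a nuclear lamin), which fell by 1.24, and Nes (nestin), which fell by 0.67. Of the CCN genes, Ccn4 was lower with DINCH (-1.40) and DOM (-0.79), and Ccn5 was higher with DOM (0.95).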

How the data were processed

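RNA of TM4 cultures was labelled with Cy3 and hybridized to 8x60K mouse arrays, and the authors extracted spots with Feature Extraction 11.5.1.1. The deposited processed intensities were linear, with background subtracted by the authors and no scaling between arrays. A deposited table of log2 values, normalized by the authors, served as an alternative. Here the log2 intensity (floor of 1) was set relative to the 75th percentile of each array, without outlier spots and with the mean taken over a probe's spots. Probes were named by RefSeq accession. The test took probes that, in 1 or both groups, exceeded background and reached the 20th percentile on every array. It was run with limma 3.58.1 in R 4.3.3, each pair of groups alone. Figures used Python 3.11.15 and matplotlib 3.10.9.

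All 10 members are named, with called genes of the pathway lists (at most the 4 largest per list and compound), the 3 genes most correlated with Acta2 and Ccn2, and markers. Yap1 and Srf were added after their values were seen. The result of 1 pathway list is not reported here. The members, lists and tests were chosen with earlier results of these data known. P-values measure the spread between these cultures of 1 line, and the number of arrays limits the precision. MEHP, BDB and DINCH lay in other slide rows than DMSO, so row and compound cannot be told apart for them. DOM likewise lay in other slide rows than MEHP, BDB and DINCH, so the same holds for DOM against each of them.

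From the values, replicate numbers could be read as pairs for DINCH (correlations of deviations from 0.17 to 0.50), BDB (0.25 to 0.43) and DOS (0.20 to 0.45). They could not for MEHP (-0.14 to 0.45) or DOM (0.04 to 0.43). The main tests used no pairing for any compound, and the replicate block served only as an alternative. The alternatives were quantile normalization, normexp on the median signals (offset of 50), no filter, detection on 1 array, slide or replicate block, a joint fit of the 6 groups, a variance trend, outlier spots included, the brightest probe alone, the authors' table and leaving out each array. The steps were tested on simulated data.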

Additional observations from a re-analysis of the deposited data

Results flagged for a closer look

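In 50 groups of 4 arrays (a gene in a group), 2 had 1 array far from the others, and chance gives about 1 in 20. Tpm2 was at 3.95 on DMSO replicate 4 and at 4.11 to 4.14 on the other 3. Ccn2 was at 5.07 on DOM replicate 1 and at 3.66 to 3.84 on the other 3. Replicate 1 had the highest Ccn2 level in 5 of the 6 groups.

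The other results listed are differences between compounds that passed limma's test on the brightest probe. DOM differed from DOS in Tagln (-0.89), Cnn1 (-2.02), Ccn2 (-1.59) and Ankrd1 (-1.44). DOM differed from MEHP in Acta2 (0.80), Cnn1 (-1.70), Myl9 (1.41), Ccn2 (-2.09) and Ankrd1 (-1.70). DOM differed from DINCH in Cnn1 (-1.55), Myl9 (1.30), Ccn2 (-1.73) and Ankrd1 (-1.36), and from BDB in Cnn1 (-1.51), Myl9 (1.35), Ccn2 (-2.47) and Ankrd1 (-1.82). MEHP differed from DINCH in Acta2 (-0.76).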

How the results depend on the processing

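The number of members called changed by over 1.5 times in 4 of the 10 comparisons. For MEHP against DMSO it was 0, and from 0 to 2 when 1 array was left out (2 without DMSO replicate 1). For DINCH against DMSO it was 1, and 0 with no filter on dim probes or with the brightest probe only, and from 0 to 1 when 1 array was left out (0 without DMSO replicate 3). For BDB against DMSO it was 0, and 1 with the slide as a block. For DOM against DOS it was 5, and 2 with no filter. The brightest probe alone leaves out the Tpm1 probes that DINCH raised. The cause of the other changes was not tested. No direction of a called member was reversed. With the replicate block, 4 members were called for DOM and 0 for DOS, and the block changed no call of a member. The Ccn2 call for DOM against DMSO was lost in 7 of 19 alternatives, with no filter (adjusted p = 0.11), with detection on 1 array (0.06) and without each of 5 single arrays. With the replicate block it was -1.34 ± 0.09 (SE; limma, adjusted p = 0.000679), although the numbers did not meet the criterion for pairs in this comparison. With no filter the Ccn2 and Tagln calls between DOM and DOS were also lost. The number of arrays limits what could be detected. The number of all genes called moved by over 1.5 times in some settings. With normexp it was 115 in place of 201 for MEHP, 594 in place of 984 for DINCH, 1627 in place of 2463 for DOM, 1239 in place of 1883 for DOM against DOS and 219 in place of 442 for MEHP against DINCH. With no filter it was 3 for MEHP, 97 for DINCH, 872 for DOM against DOS and 265 for MEHP against DINCH, and with detection on 1 array 98 for MEHP and 609 for DINCH. For BDB, where it was 0, it was 42 with normexp, 100 with the slide block, 120 with all groups in 1 fit and 82 with a variance trend, and for DOS 2 with normexp.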
